A study of Mus musculus with 22 samples.

Results

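The 35 genes described here are transcripts of the two-cell mouse embryo that lie outside the Zscan4 cluster. They were chosen by name, as rows of a count table of 44749 genes and repeat families, and all 35 were found there. RNA was sequenced from 22 libraries of male mouse embryonic stem cells (ESCs), grown without feeder cells in serum and LIF. Cells with a conditional knockout (cKO) of Ythdc1, a nuclear protein that binds the RNA modification m6A, gave 4 libraries after 4OHT and 4 after DMSO. 4OHT is a ligand widely used to switch on inducible Cre recombinases, and DMSO is its solvent. 2 libraries are labelled Mettl3 KO and 2 Mettl3 WT; Mettl3 is the catalytic subunit of the enzyme that writes m6A. A further set combined the Ythdc1 cKO, in every library, with Dux-KO or Dux-Het, each with 2 libraries under 4OHT and 2 under DMSO, and with 1 pair that carries no Dux label. The titles of the first set number 2 ESC lines, which the table's columns do not carry. The labels name neither the Cre construct nor the length of treatment, and do not say whether a genotype is 1 clone. They also do not say that replicate libraries were grown apart, and the p-values then cover only the spread among libraries, which may be technical.

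The genome of the mouse embryo is first broadly transcribed at the two-cell stage. A small share of cells in an ESC culture passes in and out of a state that resembles that stage, in which the transcription factor Dux binds and switches on endogenous MERVL retroviruses and a set of young, often duplicated genes. Members of this set encode homeobox and zinc finger proteins, small Tcstv proteins, TRAF- and POZ-domain proteins, Usp17-like deubiquitinases and leucine-rich Prame-like proteins.

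The 35 genes lie on 11 chromosomes, with 6 each on chromosomes 4, 7 and 13, 5 on chromosome 12 and 4 on chromosome 3. Transcripts of 23 of them fall into 6 families, joined by gene name or by 80% identity or more. Joined by name only were Tdpoz4, 78.3% to 79.1% identical to the other Tdpoz genes, and Pramef6, 65.4% identical to BC080695 and 64.9% to Pramef25. The largest families hold 5 genes each, namely the 5 Usp17l genes of chromosome 7 and Tcstv1, Tcstv3, AF067061, Gm21761 and Gm20767 on chromosome 13. Of 3 members more than 50% of the 150-base windows recur exactly in other genes: BC061212 (all of them), Gm4340 (89.7%) and Gm4027 (88.2%). Levels of these 3 are uncertain, since the labels do not say how reads with several matches were counted.

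RefSeq (GRCm38.p6) gives 20 promoters for 19 of the members. 4 of them, from 4 chromosomes, are nearly the same sequence, and they are shown because these genes share a promoter and not a protein family. Each is the 250 bases before an annotated start, read 5′ to 3′ on the gene's strand, at chr10:104193792-104194041 (plus strand) for Gm4340, chr4:101844023-101844272 (minus strand) for B020004J07Rik, chr6:136327289-136327538 (plus strand) for Gm8994 and chr1:85603892-85604141 (minus strand) for the upstream start of Sp110. Capitals mark GATTNNATC, the core of the motif bound by Dux, on either strand (in Sp110 on the reverse strand).
Gm4340: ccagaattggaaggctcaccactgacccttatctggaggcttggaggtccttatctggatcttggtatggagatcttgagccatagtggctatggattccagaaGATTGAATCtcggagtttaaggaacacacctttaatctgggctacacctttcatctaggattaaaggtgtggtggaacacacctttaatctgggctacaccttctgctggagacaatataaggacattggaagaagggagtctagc
B020004J07Rik: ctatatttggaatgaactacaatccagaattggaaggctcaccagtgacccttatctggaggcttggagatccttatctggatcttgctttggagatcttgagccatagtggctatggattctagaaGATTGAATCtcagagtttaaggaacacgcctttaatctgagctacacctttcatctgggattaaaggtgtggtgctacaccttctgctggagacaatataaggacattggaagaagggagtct
Gm8994: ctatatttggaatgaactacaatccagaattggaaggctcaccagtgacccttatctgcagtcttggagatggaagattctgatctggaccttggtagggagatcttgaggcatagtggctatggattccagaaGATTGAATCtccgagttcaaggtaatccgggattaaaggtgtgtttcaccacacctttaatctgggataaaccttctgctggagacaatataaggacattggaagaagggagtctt
Sp110: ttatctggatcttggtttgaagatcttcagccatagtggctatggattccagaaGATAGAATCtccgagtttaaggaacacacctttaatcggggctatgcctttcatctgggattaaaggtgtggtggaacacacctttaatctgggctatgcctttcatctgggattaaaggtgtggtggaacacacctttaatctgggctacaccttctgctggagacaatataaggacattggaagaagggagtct

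Identity between pairs of these 4 promoters ran from 89.8% over 235 aligned bases (Gm8994 and B020004J07Rik) to 96.0% over 227 bases (Gm4340 and B020004J07Rik). Sp110 and Gm4340 were 95.9% identical over 197 bases. The core motif began 146 bases before the start in Gm4340, 123 in B020004J07Rik, 116 in Gm8994 and 196 in Sp110. GATTNNATC stood in 6 of the 20 member promoters (30.0%), against 1.38% of all 32536 distinct promoters of the same length. The other 2 were those of AF067061 and Gm21761, which were 92.4% identical to each other over 250 bases. The 6 are thus 1 set of 4 and 1 pair of closely alike promoters, not 6 independent matches, and the shares do not measure an enrichment. The longer form of the motif, with a T before and an A after that core, was in 0 of 20 (0.178% of all), and TATAAA was in 3 of 20 (15.0%, against 12.3% of all), each of them a Usp17l gene. These are matches of letters in short windows and show no binding. Motifs were searched on both strands.

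Libraries held between 24.96 and 54.14 M counts. Levels are given as counts per 1000000 (CPM) with 1 scaling over all 22 libraries, and changes as log2 fold changes with their standard error (SE) and a Benjamini-Hochberg adjusted p of edgeR's quasi-likelihood test over all entries tested. A change is called at an adjusted p under 0.05. Ythdc1 itself was lower after 4OHT, at 49.0 to 62.8 CPM against 70.8 to 80.2 CPM after DMSO (log2 −0.41 ± 0.08, adjusted p = 0.00064). In the Dux set Ythdc1 did not pass: it was at 53.9 and 56.6 CPM under 4OHT and at 49.7 and 71.3 CPM under DMSO in Dux-KO cells (log2 −0.09 ± 0.22, adjusted p = 0.843), and at 52.2 and 65.9 CPM under 4OHT and 58.9 and 86.5 CPM under DMSO in Dux-Het cells (−0.28 ± 0.22, adjusted p = 0.456), with overlap in both. Mettl3 stood at 14.5 to 28.4 CPM in the libraries labelled Mettl3 KO and at 29.0 to 29.9 CPM in WT (log2 −0.44 ± 0.25, adjusted p = 0.207), so its RNA does not check these labels. For the Dux set, the labels' genotype and treatment fields run 1 sample out of step with the titles, and groups follow the titles, as the column names do. Duxf3, the table's entry for Dux, had 1 and 5 counts in Dux-KO cells under 4OHT, against 68 and 48 in Dux-Het cells (log2 −4.39 ± 0.67, adjusted p = 0.019). Under DMSO it had 2 and 4 counts in Dux-KO cells and 6 and 3 in Dux-Het cells, which overlap, so its RNA does not check the Dux labels there. ESC markers were high in all groups (their 9 genes sum to 1379.2 to 2694.7 CPM), and oocyte markers summed to at most 3.19 CPM.

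**Figure D1:**
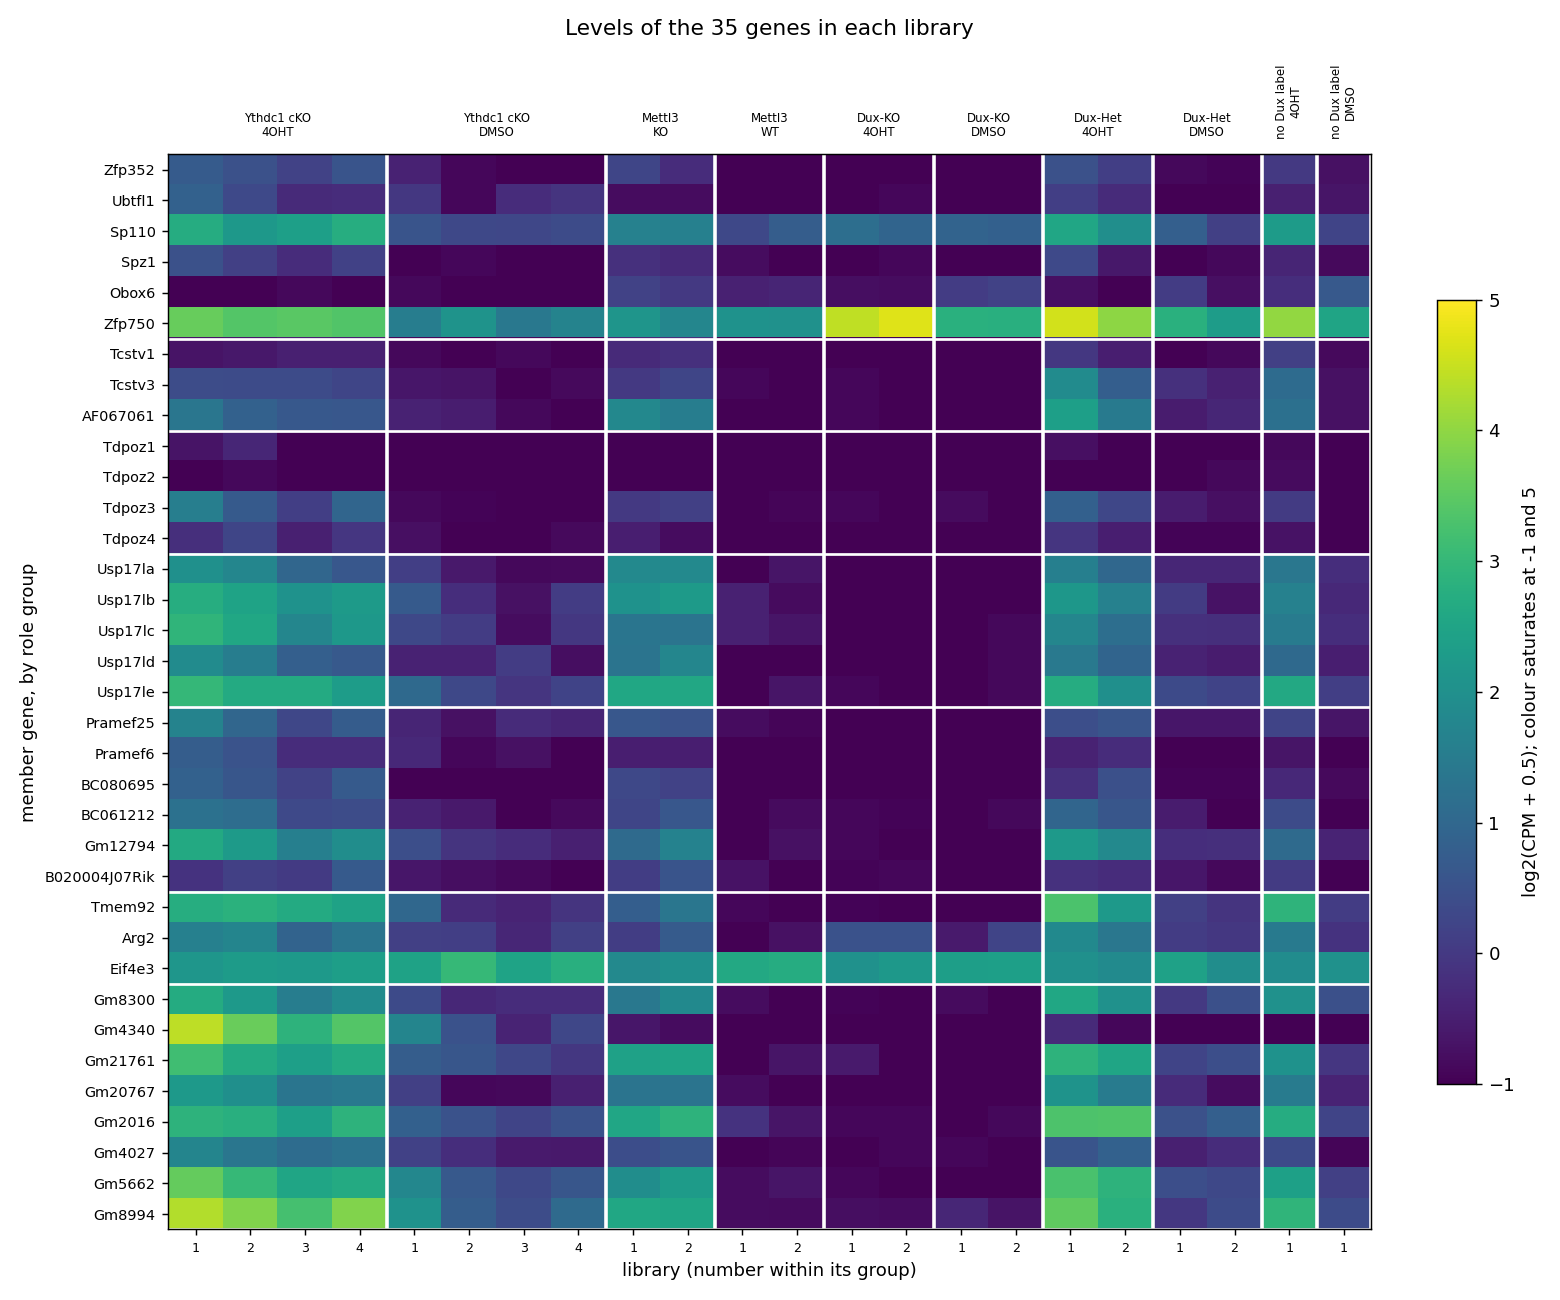
Level of each of the 35 genes (rows, by role) in each of the 22 libraries (columns, by group), as log2(CPM + 0.5). Most rows are bright in Ythdc1 cKO cells under 4OHT, in the libraries labelled Mettl3 KO and in Dux-Het cells under 4OHT, and dark in all 4 Dux-KO libraries, where Zfp750 and Eif4e3 stay bright.

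In Ythdc1 cKO cells most of the 35 genes were higher after 4OHT than after DMSO. Of 30 members with enough counts to test, 28 rose, 1 fell (Eif4e3) and 1 did not pass (Ubtfl1), where 23.7% of all 24385 entries tested were called higher and 21.4% lower. The median log2 fold change of the tested members was 3.13, against 0.0158 over all entries. A member tested only because it is high after 4OHT had to differ, so these counts describe the set and are not a test of it. In bulk RNA a larger share of cells that express these genes and more RNA in each such cell cannot be told apart.

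Among the DNA-binding proteins Zfp750, a zinc finger factor known from epidermal differentiation, had the highest level. It was at 11.6, 10.0, 10.6 and 9.85 CPM in the 4OHT libraries, against 2.43, 3.71, 2.14 and 2.7 CPM in the DMSO libraries. All 4OHT libraries were above all DMSO libraries, and the log2 fold change was 1.95 ± 0.16 (adjusted p = 7.47e-08). Its gene, at chr11:121510978-121519333 on the minus strand of GRCm38, overlaps Tbcd on the other strand, and Tbcd did not pass (log2 −0.03, adjusted p = 0.692). Sp110, an interferon-inducible protein of nuclear bodies whose gene (chr1:85576899-85598817, minus strand) overlaps G530012D18Rik on the other strand, stood at 6.09, 4.08, 4.75 and 6.19 CPM after 4OHT and at 0.964, 0.742, 0.706 and 0.783 CPM after DMSO. The groups did not overlap (log2 2.74 ± 0.20, adjusted p = 3.18e-08). Zfp352, a zinc finger gene typical of the two-cell embryo, rose by 3.66 ± 0.71 on the log2 scale (adjusted p = 0.000493), and Spz1, a basic helix-loop-helix factor first described in testis, had 106 counts after 4OHT and 2 after DMSO, a ratio of 53.0 (95% counting interval 14.3 to 444.0; adjusted p = 3.31e-05).

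Ubtfl1, an HMG-box protein of preimplantation embryos, was the tested member that did not pass. It was at 1.32, 0.752, 0.318 and 0.342 CPM after 4OHT and at 0.482, 0.0401, 0.353 and 0.432 CPM after DMSO. The groups overlapped: 4OHT libraries 1 and 2 were above every DMSO library and the other two were not (log2 1.12 ± 0.60, adjusted p = 0.142). Obox6, an oocyte-type homeobox gene, had 2 counts in 1 library of each group and 0 in the others, and was not tested.

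Tcstv genes are named after their variable expression at the two-cell stage, and mouse Tcstv1 and Tcstv3 have been tied to telomere length in ESCs. Of Tcstv1, Tcstv3 and AF067061, the last had the highest level, at 2.04, 1.33, 1.08 and 1.06 CPM after 4OHT and at 0.241, 0.200, 0.0504 and 0 CPM after DMSO. Every 4OHT library exceeded every DMSO library (log2 3.43 ± 0.55, adjusted p = 8.96e-05). Tcstv3 rose as well (log2 3.21 ± 0.57, adjusted p = 0.000249). Tcstv1, with 29 counts after 4OHT and 4 after DMSO, was below the count filter.

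Tdpoz genes encode proteins with a TRAF domain and a POZ domain. Tdpoz3 was at 2.46, 1.12, 0.588 and 1.43 CPM after 4OHT and at 0.0482, 0.0200, 0 and 0 CPM after DMSO. Its 241 counts after 4OHT compare with 3 after DMSO, a ratio of 80.4 (95% counting interval 27.2 to 393.0; adjusted p = 3.02e-06). Tdpoz4 had 74 counts after 4OHT and 6 after DMSO, Tdpoz1 had 19 and 0, and Tdpoz2 had 2 and 0; none of these 3 was tested on its own. Summed over its 4 genes the family rose by 5.13 ± 0.59 on the log2 scale (adjusted p = 3.41e-06).

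All 5 Usp17l genes, deubiquitinases of which the first was found as a cytokine-induced gene of blood cells, rose by 2.81 to 3.43 on the log2 scale. Usp17le, the member with the highest level, was at 7.47, 5.84, 5.88 and 4.48 CPM after 4OHT and at 1.57, 0.742, 0.454 and 0.648 CPM after DMSO. These ranges did not overlap (log2 2.81 ± 0.28, adjusted p = 8.17e-07). The Prame-like genes encode leucine-rich repeat proteins of the early embryo and germ line, and all 6 rose. Gm12794, which RefSeq lists as Pramel19, was at 5.78, 4.30, 2.52 and 3.33 CPM after 4OHT and at 0.867, 0.441, 0.353 and 0.216 CPM after DMSO. Its lowest 4OHT library was above the highest DMSO library (log2 3.10 ± 0.35, adjusted p = 2.34e-06). BC080695 had 64, 48, 26 and 36 counts after 4OHT and 0 in every DMSO library, so it was at least 58.0-fold higher, with 3 counts over the group taken as the floor.

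Tmem92, Arg2 and Eif4e3 belong to none of these families. Tmem92, a membrane protein, was at 6.19, 6.62, 5.90 and 4.97 CPM after 4OHT and at 1.49, 0.321, 0.252 and 0.432 CPM after DMSO (log2 3.27 ± 0.37, adjusted p = 2.56e-06). DMSO library 1 was apart from the other DMSO libraries and still below every 4OHT library. Arg2, the mitochondrial arginase, rose by 2.10 ± 0.31 (adjusted p = 4.42e-05). Eif4e3, a cap-binding protein of the eIF4E family, was at 3.92, 4.38, 4.24 and 4.66 CPM after 4OHT and at 5.01, 7.56, 5.09 and 6.43 CPM after DMSO. It was the 1 member that fell, by 0.47 ± 0.15 on the log2 scale, with no overlap between groups (adjusted p = 0.0208). The call was lost without DMSO library 2 (adjusted p = 0.0944), without DMSO library 4 (0.0521) or without 4OHT library 1 (0.0579).

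All 8 predicted genes rose, by 2.41 to 3.75 on the log2 scale. Gm8994 (chr6:136327539-136329983, plus strand), which RefSeq lists as Eif4a3l1, a relative of the exon junction helicase Eif4a3, was at 19.4, 14.1, 8.96 and 14.2 CPM after 4OHT and at 3.66, 1.20, 0.807 and 1.62 CPM after DMSO. The groups were well apart (log2 2.98 ± 0.33, adjusted p = 2.09e-06). Gm4340 (chr10:104194042-104196522, plus strand) was at 20.7, 11.8, 6.91 and 10.0 CPM after 4OHT and at 2.80, 0.922, 0.252 and 0.702 CPM after DMSO (log2 3.42 ± 0.45, adjusted p = 1.24e-05). Per kilobase of exon these 2 had the highest mean levels of the set after 4OHT, 9.49 CPM per kb for Gm4340 and 9.0 CPM per kb for Gm8994, with Gm21761 next at 4.53 CPM per kb.

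4OHT library 1 was the highest of its group for 25 of the 35 members, and DMSO library 1 was the highest of its group for 26 of the 32 members with counts there. DMSO library 1 also stood apart from the other DMSO libraries over all entries, with a chi-square per degree of freedom of 30.97 to 37.05 against them, compared with 8.441 to 10.82 among the others. Leaving out any 1 library left 28 to 30 members changed. ESC markers moved in the same libraries: their summed level was 1379.2 to 1650.6 CPM after 4OHT and 1899.4 to 2231.3 CPM after DMSO, with 4 of 9 lower, 1 higher and Nanog lowest (log2 −1.45 ± 0.10, adjusted p = 7.76e-09). Primitive endoderm markers summed to 32.6 to 42.0 CPM after 4OHT and 26.6 to 37.8 CPM after DMSO, and fibroblast markers to 95.1 to 168.9 CPM after 4OHT and 43.6 to 70.8 CPM after DMSO, with none of these genes at 0 in either group. Of the 5 endoderm markers 3 rose. Of the 6 fibroblast markers 1 rose, Acta2 (log2 1.60 ± 0.21, adjusted p = 1.2e-05), and 2 fell, with a median log2 fold change of −0.274 over the list. Their part in the result was not tested.

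**Figure D2:**
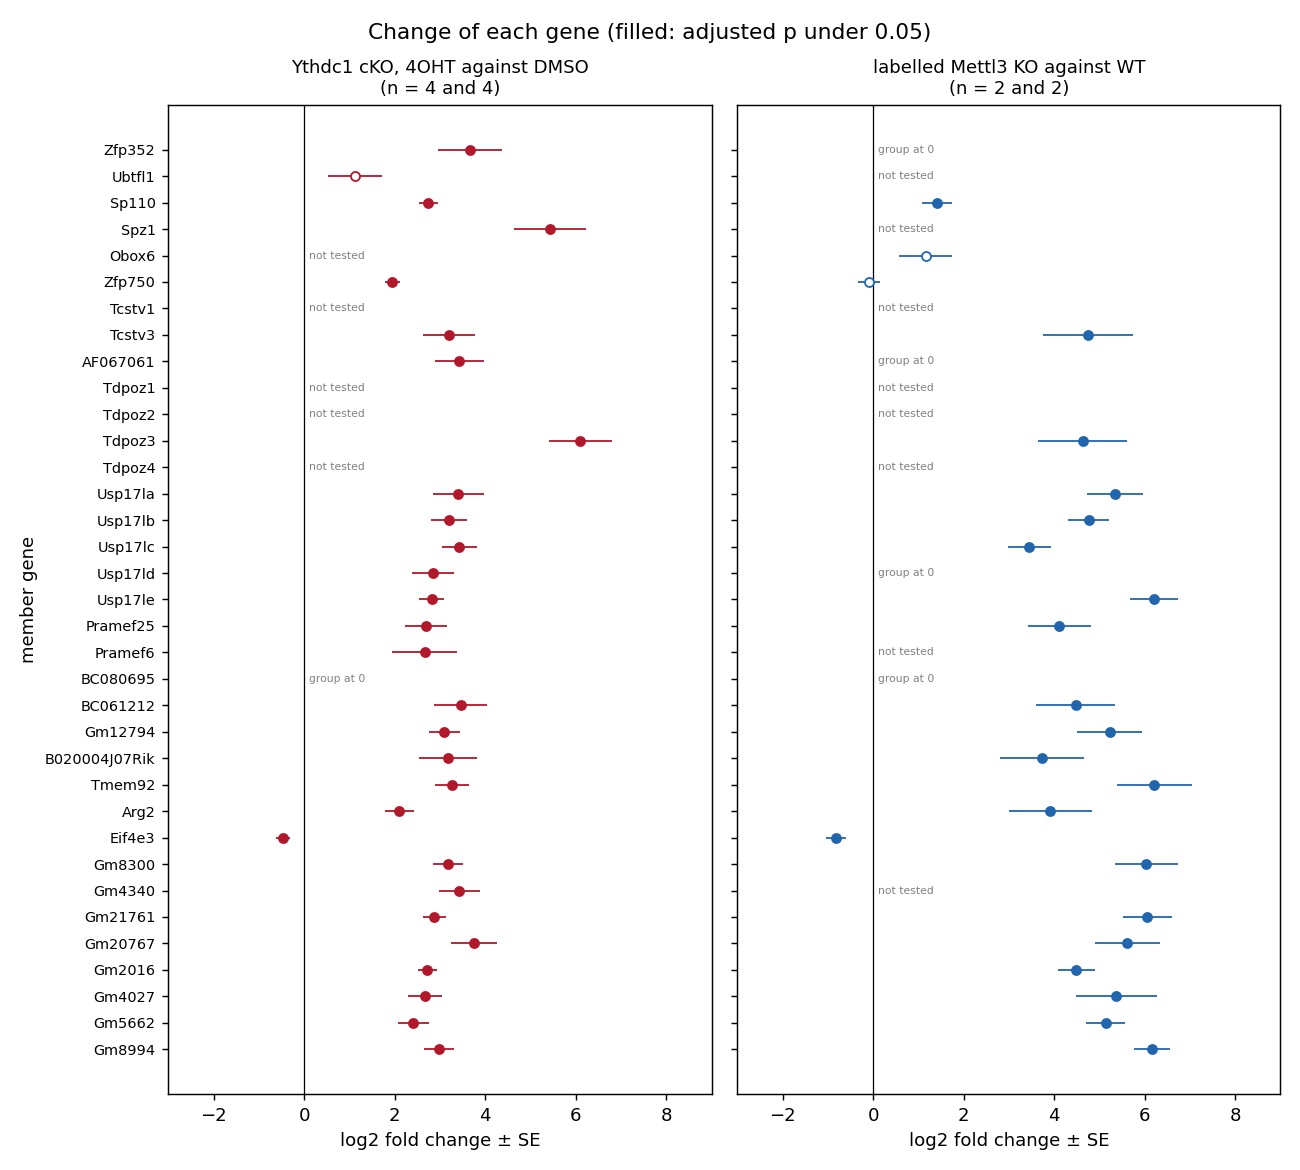
Log2 fold change ± SE of each gene in Ythdc1 cKO cells (4OHT against DMSO, left) and in the libraries labelled Mettl3 KO (against WT, right); filled points passed the adjusted p of 0.05, and genes with a group at 0 or too few counts carry no point. On the left 28 tested genes are higher; on the right 24 are, while Zfp750 sits at −0.10 and Eif4e3 is lower in both.

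The libraries labelled Mettl3 KO showed the same direction for most members. Of 27 tested, 24 rose, 1 fell (Eif4e3) and 2 did not pass (Zfp750 and Obox6), where 16.4% of all 23977 entries were called higher and 14.9% lower. A member tested only because it is high in the libraries labelled Mettl3 KO had to differ, so these counts also describe the set and are not a test of it. The members' median log2 fold change was 5.14, or 4.75 with members at 0 in WT set to their lower bound, against 0.0156 over all entries. Levels in WT were close to nothing: 17 to 19 of the 35 members had 0 counts in a WT library, against 2 in each library labelled Mettl3 KO.

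Gm8994 was at 5.47 and 5.28 CPM in the libraries labelled Mettl3 KO and at 0.0773 and 0.0668 CPM in WT (log2 6.16 ± 0.40, adjusted p = 2.08e-05). Usp17le was at 5.44 and 5.59 CPM in the libraries labelled Mettl3 KO and at 0 and 0.134 CPM in WT (log2 6.20 ± 0.53, adjusted p = 6.35e-05). Neither gene's groups overlapped. AF067061 was at 2.98 and 2.41 CPM in the libraries labelled Mettl3 KO and had no count in WT, at least 50.1-fold higher. Gm12794 was at 1.61 and 2.66 CPM in the libraries labelled Mettl3 KO and at 0 and 0.10 CPM in WT, a ratio of 39.7 (95% counting interval 13.3 to 195.0; adjusted p = 0.000728). Tdpoz3, at 0.491 and 0.594 CPM in the libraries labelled Mettl3 KO and at 0 and 0.0334 CPM in WT, rested on 1 WT count (ratio 30.3, interval 5.05 to 1230.0; adjusted p = 0.00668). In each of these 3 the lower of the libraries labelled Mettl3 KO was above both WT libraries.

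Tmem92 was at 1.23 and 2.06 CPM in the libraries labelled Mettl3 KO and at 0.0386 and 0 CPM in WT, a ratio of 91.8 that rests on 1 WT count (interval 16.1 to 3660.0; adjusted p = 0.000605). Sp110 rose less, at 2.60 and 2.55 CPM in the libraries labelled Mettl3 KO and 0.734 and 1.20 CPM in WT (log2 1.41 ± 0.34, adjusted p = 0.0117). Eif4e3 fell to 3.02 and 3.50 CPM in the libraries labelled Mettl3 KO, against 5.60 and 6.02 CPM in WT (log2 −0.82 ± 0.21, adjusted p = 0.0161). The 2 members that did not pass differed in where they stood. Zfp750 was at 3.86 and 2.87 CPM in the libraries labelled Mettl3 KO and at 3.67 and 3.61 CPM in WT, with the WT libraries between the others (log2 −0.10 ± 0.24, adjusted p = 0.8). Obox6 had 18 and 14 counts in the libraries labelled Mettl3 KO and 6 and 8 in WT, without overlap (log2 1.16 ± 0.58, adjusted p = 0.165).

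Gm4340 was the exception among the predicted genes, with 4 and 2 counts in the libraries labelled Mettl3 KO and 0 in WT, too few to test. Its 6 near-identical neighbours on chromosome 10 did the same: together they had 818 to 2526 counts per library in Ythdc1 cKO cells after 4OHT and 69 to 316 after DMSO, and 0 to 2 per library in every other group of the series. Each of the 6 rose by 3.07 to 3.29 on the log2 scale in the Ythdc1 set. Whether the cells of the other sets carry these copies in the same form, and whether their reads were counted alike, was not tested, so the values near 0 there are not read as low expression.

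Only 2 libraries stand on each side of the Mettl3 comparison. Without WT library 1 the count of members changed was 11, and without WT library 2 it was 16, with the call of Eif4e3 lost in both (adjusted p = 0.138 and 0.156). The log2 fold change of Eif4e3 was then −0.88 and −0.77, against −0.82 with both. These fits assume that the 1 WT library left varies like the libraries labelled Mettl3 KO, so the lost calls do not show smaller changes. ESC markers summed to 1425.5 to 1433.6 CPM in the libraries labelled Mettl3 KO and to 1712.2 to 1714.8 CPM in WT, with 3 of 9 higher and 3 lower; their part in the result was not tested.

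The size of the change was compared between the Ythdc1 and Mettl3 sets by a test of the difference itself. The change in the Ythdc1 set was smaller for 8 of 33 tested members and larger for 2 (11.6% and 13.7% of all 28260 entries were called lower and higher). Zfp750 had the larger change in the Ythdc1 set, by 2.09 ± 0.29 on the log2 scale (adjusted p = 2.39e-05), and Sp110 by 1.37 ± 0.38 (adjusted p = 0.0116). Gm8994 (−3.15 ± 1.03, adjusted p = 0.0295) and Gm2016 (−1.73 ± 0.49, adjusted p = 0.0123) had the smaller change there. Gm2016 was at 6.91, 6.42, 4.75 and 6.81 CPM after 4OHT and 1.30, 0.922, 0.681 and 0.918 CPM after DMSO, and at 5.40 and 6.82 CPM in the libraries labelled Mettl3 KO and 0.425 and 0.134 CPM in WT. The upper groups overlapped and the lower ones did not, with WT below every DMSO library. Without WT library 1 the count was 5, and without WT library 2 it was 3. The sets differ in their cells and libraries as well as in the gene removed, and these cannot be told apart.

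**Figure D3:**
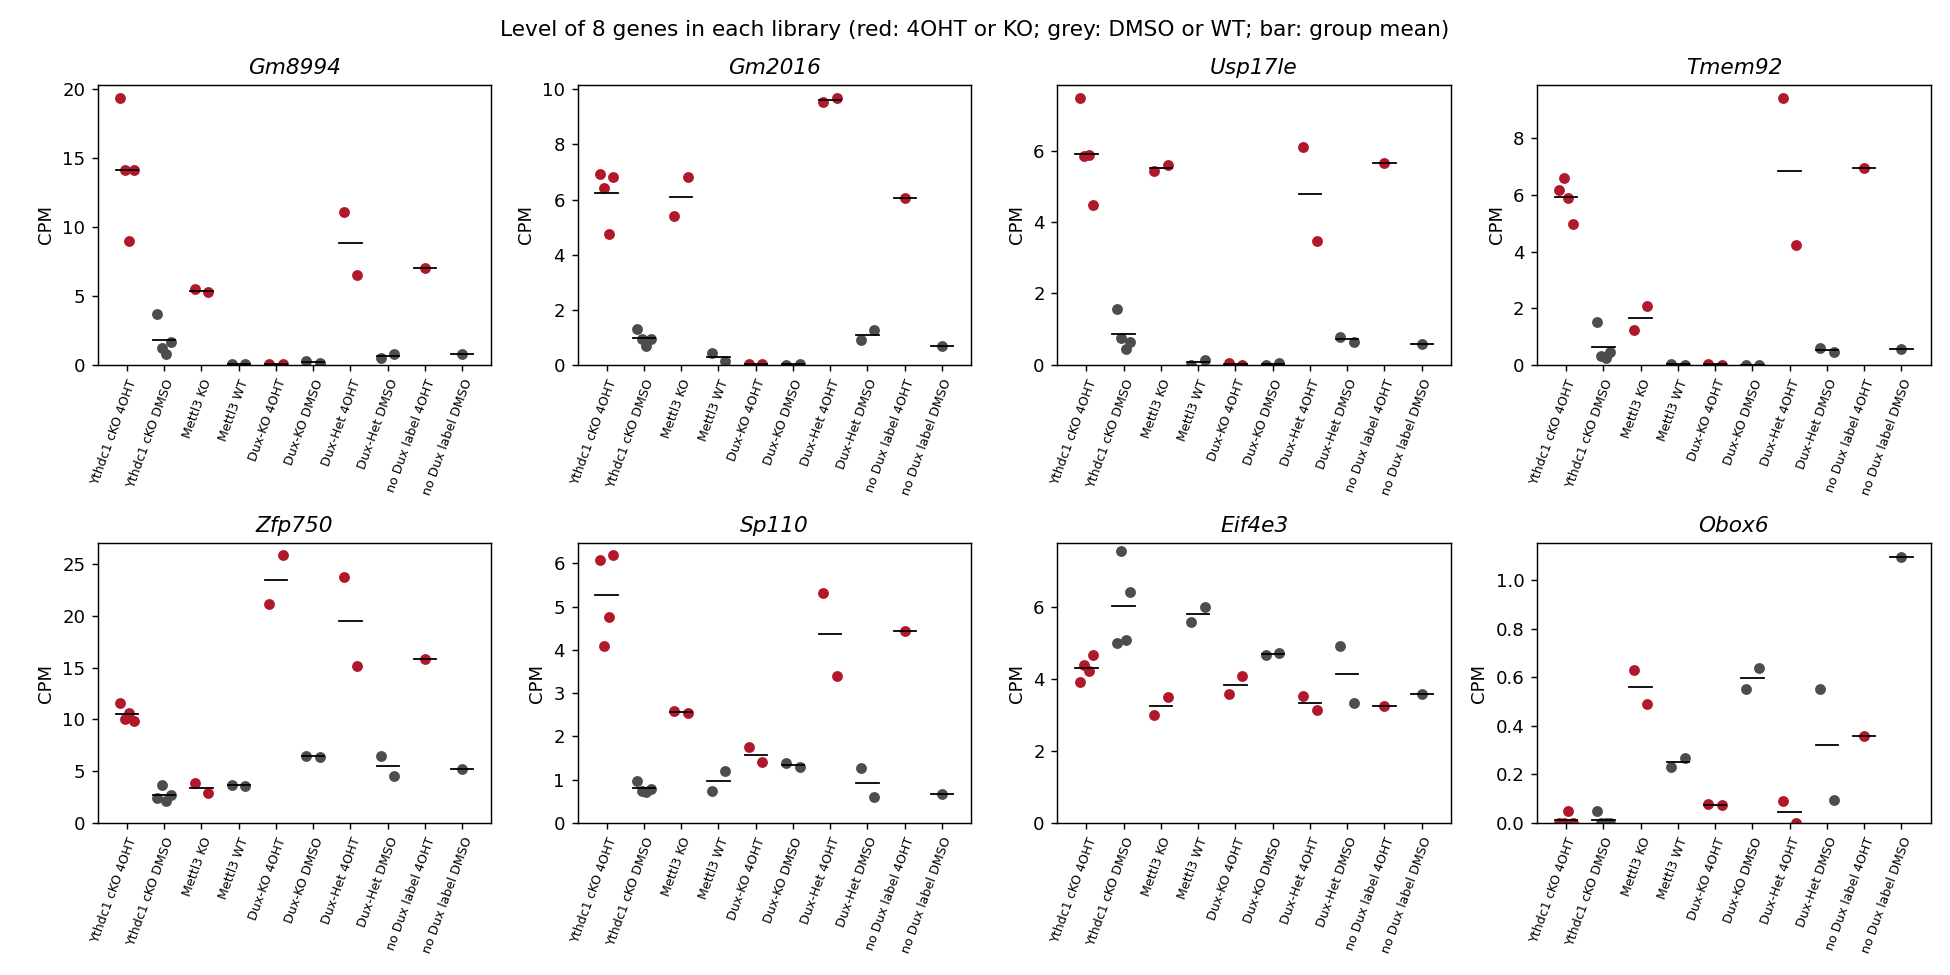
CPM of 8 members in each library, with a bar at the group mean; red points are 4OHT or labelled Mettl3 KO libraries and grey points DMSO or WT libraries. Gm8994, Gm2016, Usp17le and Tmem92 are near 0 in all Dux-KO libraries, while Zfp750 is at 21.2 and 25.8 CPM in Dux-KO cells under 4OHT, against 6.49 and 6.41 CPM under DMSO.

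The Dux set asked whether these changes occur without Dux. In Dux-KO cells 1 of 33 tested members, Zfp750, rose with 4OHT and 0 fell (5.5% of all 29322 entries were called higher and 4.36% lower). 27 of all 35 had at most 3 counts in both Dux-KO groups, which gives no fold change. A fall or a small rise in them was thus not detectable at this depth. A rise to the counts of Dux-Het cells under 4OHT would have shown in most. Usp17lb, for example, had 0 counts in Dux-KO cells under 4OHT and 311 in Dux-Het cells, whereas Tdpoz1 and Tdpoz2 had only 4 and 0 in Dux-Het cells. The members' median log2 fold change was 0, against 0.0533 over all entries. Over all entries the 2 Dux-KO DMSO libraries differed the most of all replicate pairs, with a chi-square per degree of freedom of 99.07, against 18.99 for the Dux-KO 4OHT libraries. Zfp750 was at 21.2 and 25.8 CPM under 4OHT and at 6.49 and 6.41 CPM under DMSO (log2 1.91 ± 0.26, adjusted p = 0.0015), with no overlap. Tbcd, on the other strand of that locus, did not pass there (log2 −0.20, adjusted p = 0.616). Arg2, at 0.915 and 0.920 CPM under 4OHT and at 0.173 and 0.680 CPM under DMSO, and Obox6, with 4 and 4 counts under 4OHT and 16 and 30 under DMSO, did not pass (adjusted p = 0.196 for Arg2 and 0.0752 for Obox6). Obox6 passed, as lower under 4OHT, with the replicate block (adjusted p = 0.0468), with DESeq2 (0.0428), without a count filter (0.00149) and without any 1 of the 4 Dux-Het libraries (0.0318 to 0.043). Arg2 passed as higher without Dux-KO DMSO library 2 (0.0392).

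In Dux-Het cells 23 of 33 tested members rose with 4OHT and 0 fell (4.99% of all entries were called higher and 4.34% lower). As in the Ythdc1 set, a member tested only because it is high under 4OHT had to differ, so these counts are not a test of the set. The median of the members was 3.17 on the log2 scale, or 3.08 with members at 0 under DMSO set to their bound, against 0.0371 over all entries. Among members that passed, the 3 largest changes by the fit were in Ubtfl1, BC080695 and Zfp352. Ubtfl1 had 26 and 17 counts under 4OHT and 0 in both DMSO libraries, at least 12.7-fold higher. BC080695 had 17 and 46 counts under 4OHT and 1 in each DMSO library (ratio 27.9, 95% counting interval 7.41 to 235.0; adjusted p = 0.0245). Zfp352 had 40 and 30 counts under 4OHT and 2 and 1 under DMSO (ratio 20.7, interval 6.79 to 103.0; adjusted p = 0.0182). All 3 were higher in both 4OHT libraries than in either DMSO library.

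Among the more abundant members in Dux-Het cells, Gm8994 was at 11.1 and 6.53 CPM under 4OHT and at 0.479 and 0.788 CPM under DMSO (log2 3.81 ± 0.40, adjusted p = 0.000328). Zfp750 was at 23.7 and 15.2 CPM under 4OHT and at 6.49 and 4.52 CPM under DMSO (log2 1.84 ± 0.26, adjusted p = 0.0019). Sp110 was at 5.32 and 3.40 CPM under 4OHT and at 1.27 and 0.602 CPM under DMSO (log2 2.24 ± 0.38, adjusted p = 0.00543). In all 3 the groups were apart, with 4OHT library 1 above 4OHT library 2, as it was for 29 of the 34 members with counts. The 10 members that did not pass were Tcstv1, Tdpoz3, Tdpoz4, Pramef6, Spz1, Eif4e3, Gm4340, Gm4027, B020004J07Rik and Obox6. Eif4e3 was at 3.53 and 3.15 CPM under 4OHT and at 4.93 and 3.34 CPM under DMSO (log2 −0.29 ± 0.25, adjusted p = 0.526). All 6 families rose when their genes were summed, the Tdpoz family by 2.87 ± 0.72 (adjusted p = 0.0308).

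**Figure D4:**
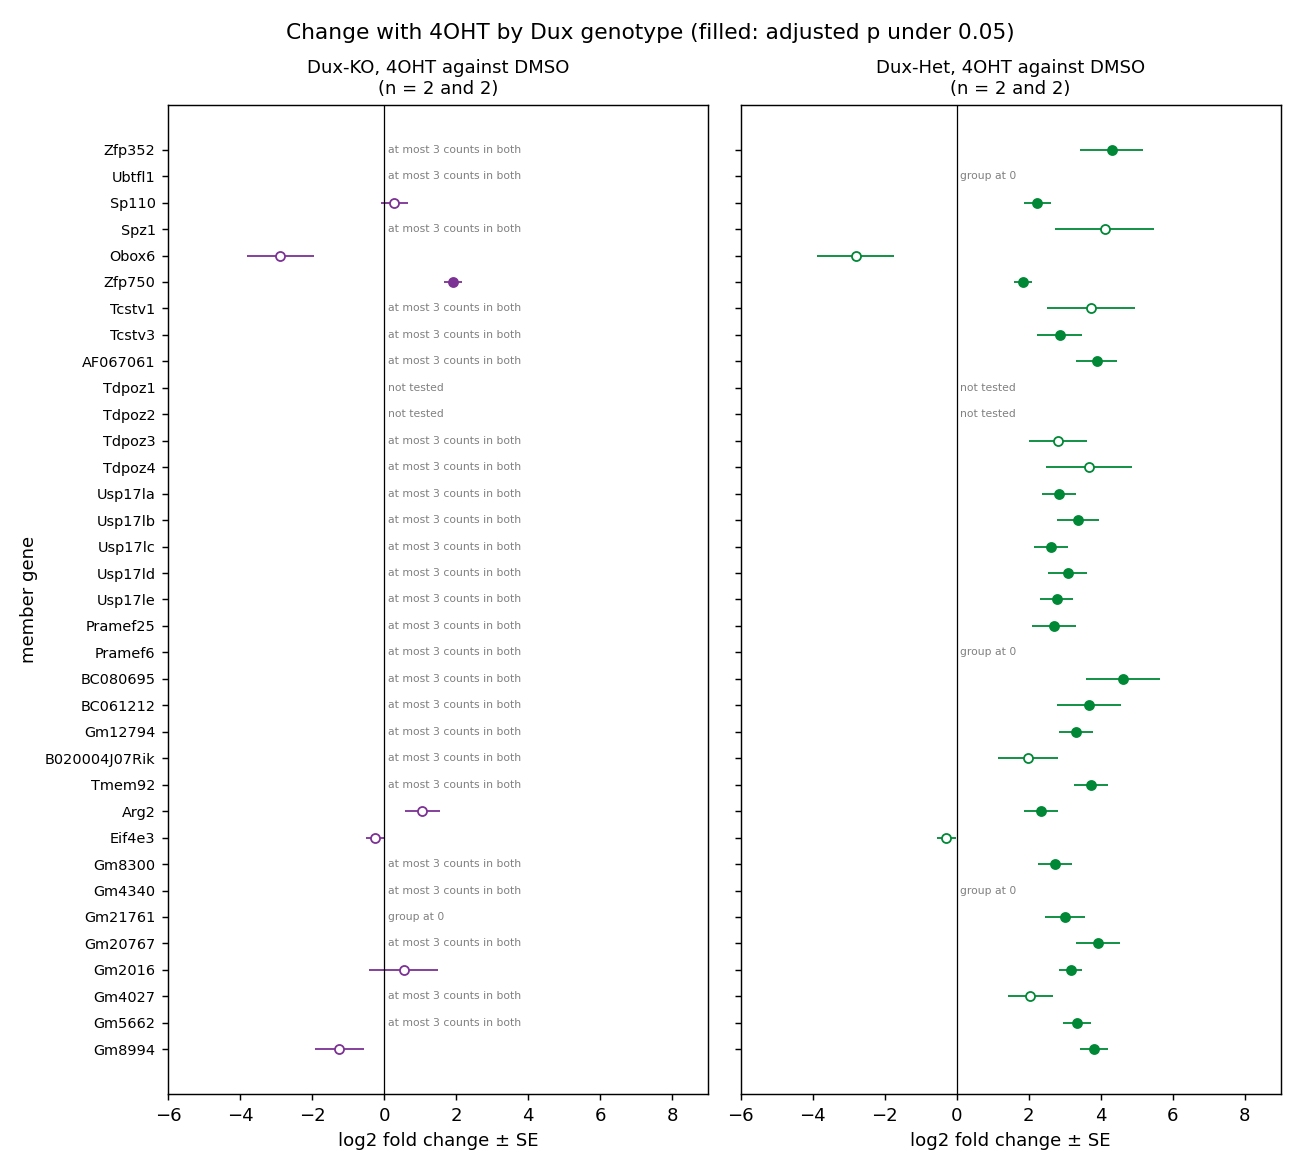
Log2 fold change ± SE with 4OHT against DMSO in Dux-KO cells (left) and Dux-Het cells (right); filled points passed the adjusted p of 0.05, and words mark genes with too few counts or a group at 0. On the left Zfp750 alone is filled, at 1.91, beside 1.84 on the right, where 23 genes passed.

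Under 4OHT, Dux-KO cells were compared with Dux-Het cells directly. 18 of 33 tested members were lower in Dux-KO cells and 0 higher, where 0.273% of all entries were called lower and 0.00341% higher. Members tested only because they are high in Dux-Het cells under 4OHT had to differ here too, so this count describes the set. The median log2 difference was −6.91 by the fit and −5.52 with members at 0 in Dux-KO cells set to their bound, against 0.0044 over all entries. Among members that passed, the 3 largest differences were in genes without a count in Dux-KO cells under 4OHT. Usp17lb had 176 and 135 counts in the Dux-Het libraries and was at least 114.0-fold lower in Dux-KO cells, Gm20767 with 166 and 121 counts at least 105.0-fold lower, and Usp17lc with 128 and 90 counts at least 80.1-fold lower.

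Gm2016 was at 0.0398 and 0.0361 CPM in Dux-KO cells and at 9.53 and 9.68 CPM in Dux-Het cells (log2 −7.89 ± 0.46, adjusted p = 2.02e-05). Gm8994 was at 0.0795 and 0.0722 CPM in Dux-KO cells and at 11.1 and 6.53 CPM in Dux-Het cells (log2 −6.81 ± 0.50, adjusted p = 0.000117). Tmem92 had 1 count in Dux-KO cells and 636 in Dux-Het cells, a ratio of 701.0 (95% counting interval 125.0 to 27700.0; adjusted p = 0.000439). These genes were near their floor in both Dux-KO libraries. Sp110 was at 1.75 and 1.41 CPM in Dux-KO cells and at 5.32 and 3.40 CPM in Dux-Het cells, without overlap, and did not pass (log2 −1.47 ± 0.36, adjusted p = 0.357). Zfp750 was at 21.2 and 25.8 CPM in Dux-KO cells and at 23.7 and 15.2 CPM in Dux-Het cells, with the Dux-KO libraries within or just above the others (log2 0.27 ± 0.24, adjusted p = 1). The count of members lower was 11 without Dux-KO 4OHT library 2 and 12 without library 1, where the spread comes from the other groups and the library left is assumed to share it.

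Under DMSO 2 of 33 tested members passed between the same 2 genotypes, both lower in Dux-KO cells (0.0341% of all entries were called lower and 0% higher). The members' median log2 difference was −3.75 by the fit, or −2.93 with bounds where a bound could be given, against −0.0178 over all entries. 18 of the 33 had an unadjusted p under 0.05 in edgeR's test. The share of all entries at that unadjusted threshold is not given, so this count is not read as an excess. Gm5662 had 0 counts in both Dux-KO libraries, against 0.862 and 0.742 CPM in Dux-Het cells, at least 20.3-fold lower. Gm2016 was at 0 and 0.0425 CPM in Dux-KO cells and at 0.909 and 1.25 CPM in Dux-Het cells, a ratio of 41.2 that rests on 2 counts in Dux-KO cells (95% counting interval 11.1 to 345.0; adjusted p = 0.00919). In both genes the Dux-Het libraries lay above the Dux-KO ones. Without Dux-KO DMSO library 1 neither passed (adjusted p = 0.338 for Gm5662 and 0.117 for Gm2016), nor without library 2 (0.717 and 0.0964), and without Dux-Het DMSO library 1 Gm5662 did not (0.0564). In these fits the 1 library left is assumed to vary like the other groups. Gm2016 kept its direction in both fits without a Dux-KO DMSO library (log2 −4.62 and −8.58), and Gm5662 still had 0 counts in the library left. Of the 35 members, 10 had at most 3 counts in both groups.

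Whether the response to 4OHT itself differed between Dux-KO and Dux-Het cells was tested as a difference of changes, and 0 of 33 members passed (0% of all 29322 entries passed in either direction). 4 members had an unadjusted p under 0.05, all with a smaller change in Dux-KO cells: Gm8994 (−5.05 ± 0.79), Sp110 (−1.96 ± 0.53), Usp17ld (−6.40 ± 1.99) and Usp17lc (−5.96 ± 1.95). The share of all entries at that unadjusted threshold is not given, so this count is not read as an excess either. DESeq2 called 1, Gm8994, as did edgeR without the count filter. For Zfp750 the difference of changes was 0.06 ± 0.35 on the log2 scale. The test has little to work with where a gene has no count in either Dux-KO group.

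In the pair with no Dux label 23 of 35 members had a log2 ratio of at least 1 with a pseudocount of 0.5 CPM, and none of −1 or below (4.29% and 1.6% of 21718 entries). The number was 29 with a pseudocount of 0.1 CPM and 18 with 1 CPM. The median ratio of the members was 1.47, against −0.012 over all entries. There is 1 library per treatment and no test. Gm8994 was at 7.05 CPM under 4OHT (95% exact Poisson interval 6.29 to 7.87, which covers counting error only) and 0.783 CPM under DMSO. Tmem92 was at 6.96 CPM under 4OHT and 0.548 CPM under DMSO, and Zfp750 at 15.8 CPM under 4OHT and 5.17 CPM under DMSO. Obox6 went the other way in this pair, with 16 counts under 4OHT and 42 under DMSO, and Gm4340 had no count in either.

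Without Eif4e3, Zfp750, Sp110, Arg2 and Obox6, whose levels did not follow Dux genotype in the same way, the other 30 members together gave 67.4 to 136.1 CPM in Ythdc1 cKO cells after 4OHT and 6.53 to 22.7 CPM after DMSO. Their sum was 52.1 to 58.9 CPM in the libraries labelled Mettl3 KO and 1.20 to 1.55 CPM in WT. In Dux-KO cells it was 0.271 to 0.636 CPM under 4OHT and 0.340 to 0.449 CPM under DMSO, and in Dux-Het cells 63.0 to 94.3 CPM under 4OHT and 8.34 to 8.47 CPM under DMSO. These 30 were picked after their values were seen and are given without a test.

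Dux, MERVL and other genes reported in two-cell-like cells were measured in the same libraries. Duxf3 rose in Ythdc1 cKO cells under 4OHT (log2 2.31 ± 0.40, adjusted p = 0.000193), in the libraries labelled Mettl3 KO (2.63 ± 0.72, adjusted p = 0.021) and in Dux-Het cells under 4OHT (3.52 ± 0.64, adjusted p = 0.00713). MERVL-int, the internal part of the MERVL retrovirus, rose in the same 3 comparisons, by 1.65 in Ythdc1 cKO cells, 1.03 in the libraries labelled Mettl3 KO and 1.54 in Dux-Het cells on the log2 scale. All 9 Zscan4 genes rose in these 3 comparisons, and with 4OHT in Dux-KO cells 0 of the 9 passed edgeR's test (0 at an unadjusted p under 0.05). Their median log2 fold change in Dux-KO cells was 0, and Zscan4c had 0 counts in every Dux-KO library. A small rise from there was thus not detectable. A rise to the 948 and 1061 counts of Zscan4c in Dux-Het cells under 4OHT would have shown. A further list held 34 genes reported in two-cell-like cells, of which 14 were tested in Ythdc1 cKO cells and 13 rose. In the libraries labelled Mettl3 KO 6 of 8 rose and 1 fell. With 4OHT 0 of 18 passed in Dux-KO cells (median log2 0, 1 at an unadjusted p under 0.05), and 7 of 18 rose in Dux-Het cells. Over all entries 23.7% were called higher in Ythdc1 cKO cells, 16.4% in the libraries labelled Mettl3 KO, 5.5% in Dux-KO cells and 4.99% in Dux-Het cells. A gene tested only because it is high in the upper group had to differ, so these counts describe the list.

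Of 28 regulators of the two-cell-like state, 7 rose and 13 fell in Ythdc1 cKO cells under 4OHT, where 23.7% of all entries were called higher and 21.4% lower. Among them were Dppa2, an activator of Dux (log2 0.97 ± 0.11, adjusted p = 3.72e-06), and Chaf1b, a subunit of the histone chaperone CAF-1 that keeps the state in check (−0.89 ± 0.09, adjusted p = 6.93e-07). In the libraries labelled Mettl3 KO 7 rose and 6 fell, against 16.4% and 14.9% of all entries. There Dppa2 rose (0.59 ± 0.12, adjusted p = 0.0051), as did Setdb1, a histone H3K9 methyltransferase that silences retroviruses (0.66 ± 0.08, adjusted p = 0.000417), and its cofactor Trim28 fell (−0.42 ± 0.08, adjusted p = 0.00421). In Dux-KO cells Dppa2 was at 35.62 and 39.15 CPM under 4OHT and at 17.44 and 24.46 CPM under DMSO, without overlap. In Dux-Het cells it was at 37.53 and 43.06 CPM under 4OHT and at 26.18 and 38.05 CPM under DMSO, with overlap. With 4OHT 1 of the 28 rose and 3 fell in Dux-KO cells, against 5.5% and 4.36% of all entries. In Dux-Het cells 0 rose and 5 fell, against 4.99% and 4.34% of all entries. Ehmt2, another H3K9 methyltransferase, was among those that fell in Dux-KO cells (−1.37 ± 0.17, adjusted p = 0.000961) and in Dux-Het cells (−1.18 ± 0.17, adjusted p = 0.00214). Between Dux-KO and Dux-Het cells 0 of the 28 passed edgeR's test under 4OHT (0 at an unadjusted p under 0.05) and 0 under DMSO (1 at an unadjusted p under 0.05). Of the 9 ESC markers 2 fell with 4OHT in Dux-KO cells (Nanog and Zfp42) and 3 in Dux-Het cells (Nanog, Zfp42 and Tdgf1), and the others did not pass. Their summed level was 1609.0 to 1734.8 CPM under 4OHT against 2285.9 to 2694.7 CPM under DMSO in Dux-KO cells and 1614.3 to 1927.0 CPM under 4OHT against 2420.4 to 2571.1 CPM under DMSO in Dux-Het cells.

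Over the 22 libraries the members' profiles were alike with few exceptions. The correlation of a member's log2(CPM + 0.5) with the mean of the other tested members was highest for Gm12794 (r = 0.991) and lowest for Eif4e3 (−0.449), Obox6 (−0.302), Tdpoz2 (0.229) and Zfp750 (0.322). Outside the set, the 10 entries most like the members' mean, among 21785 with a mean of at least 0.5 CPM, were BB287469 (r = 0.987), Gm12800, Gm1995, Gm5039, Gm38258, Gm21037, Kdm4dl, Gm18983, Gm8332 and Gm5580 (0.974). These correlations describe 22 libraries that share groups, and BB287469, Gm12800, Gm8332 and Gm5580 share stretches of sequence with members.

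The shared promoter shown above is found beyond the members. At 85% identity or more over at least 150 bases, 29 promoters, its own and identical copies included, resembled that of Gm4340. 24 of them held GATTNNATC, and those with an entry in the table belong to 21 genes, 4 of them members. Of these 21 genes 16 were tested in the Ythdc1 set, and 13 rose and 1 fell, where 23.7% of all entries were called higher and 21.4% lower. 5 of the 13 are near-identical chromosome 10 neighbours of Gm4340, with promoters 99.6% to 100% identical to its own, and 4 are members. Those that rose also include Pemt, an enzyme of phosphatidylcholine synthesis (log2 0.81, adjusted p = 0.01). Sgk1, a kinase, fell (−0.19, adjusted p = 0.0162), and Arih2 (0.09) and Gpr161 (−0.28) did not pass. In Dux-KO cells 0 of 12 tested rose with 4OHT and 1 fell, and in Dux-Het cells 4 of 12 rose and 1 fell. This group was put together after the members' promoters had been compared and supports nothing by itself.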

How the data were processed

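Total RNA was depleted of ribosomal RNA with RNase H and sequenced with a stranded kit as paired ends, per the labels' protocols. The deposited table of raw counts, 1 row per gene or repeat family, was made by the authors, and the submitters' processing notes list mm10, STAR 2.7, RSEM, Bowtie2 and bcl2fastq with no role or order. A second deposited table holds a signal per row, each count divided by 1 factor per library by the authors, and served only for those factors. How read pairs, strand and multiple matches were counted was not stated. Of entries with 1 to 20 counts, 63.4% to 73.2% per library were even, where no preference gives 50%, so counting intervals and floors may be too narrow.

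Counts were tested with edgeR 4.0.16 in R 4.3.3: filterByExpr, TMM scaling, a quasi-likelihood fit of group means in 8 libraries for Ythdc1, 4 for Mettl3 and 10 for Dux, each apart, and a joint fit of the first 12 for the difference of changes. p-values were adjusted by Benjamini-Hochberg over all entries tested in a comparison, and the steps were tested on simulated data. CPM were scaled by TMM over 22 libraries. Folds against 0 counts use a floor of 3 counts over the group. Ratios with 1 to 3 counts carry 95% counting intervals. Replicate libraries differed by more than sampling noise (chi-square per degree of freedom 3.741 to 99.07 over 18 pairs). Gene models are GENCODE vM21 on GRCm38, and families were joined by gene name and by transcript identity from BLAST+ 2.17.0. DESeq2 1.42.0, other scalings and filters, summed families, left-out libraries and a replicate block were alternatives.

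The members and lists were chosen with earlier results of these data known. Values in every library are given for the most abundant member of each role group, for members that did not pass or went against the others in the Ythdc1 or Mettl3 set, and in the Dux set for the 3 largest fitted changes that passed. Sp110, Tmem92, Arg2, Tcstv3, Spz1, Gm4340, and Gm2016 and Gm8994 beyond this rule, were named after their values were seen. Family sums and the promoter group were also added after the data were seen.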

Additional observations from a re-analysis of the deposited data

Results flagged for a closer look

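In 9 of 67 groups of 4 libraries examined, 1 library stood far from the others. The rule marks about 5% of groups where values are normal and independent. Counts near 0 and members that vary together are neither, so 9 of 67 is not read as an excess. DMSO library 1 of the Ythdc1 set was the high one for 5 of the 9: Gm5662 at 2.915 CPM (others 0.731 to 1.102), Tmem92 at 1.494 CPM (others 0.252 to 0.432), Gm8300 at 0.771 CPM (others 0.301 to 0.353), Zfp352 at 0.241 CPM (others 0 to 0.04) and Obox6 at 0.048 CPM (2 counts, others 0). Arg2 was low in DMSO library 3, at 0.277 CPM against 0.581 to 0.602 CPM in the others. The remaining 3 rest on 2 counts in 1 library: Spz1 at 0.04 CPM in DMSO library 2, Tdpoz2 at 0.043 CPM in 4OHT library 2 and Obox6 at 0.049 CPM in 4OHT library 3.

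For 10 members the change in the Ythdc1 set differed from that in the Mettl3 set by the test of the difference. It was larger in the Ythdc1 set for Zfp750 (by 2.09 on the log2 scale) and Sp110 (1.37). It was smaller there for Usp17ld (−6.62), AF067061 (−6.21), Usp17le (−3.37), Gm21761 (−3.16), Gm8994 (−3.15), Gm8300 (−2.86), Gm5662 (−2.69) and Gm2016 (−1.73). Usp17ld and AF067061 had 0 counts in WT, so the sizes of these 2 depend on the fit and are no bound.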

How the results depend on the processing

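Of 3937 values of single members under the alternatives, 3779 stayed on their side of the threshold, 97 lost their call and 61 gained one, and no called value changed direction. With a mean of at least 1 CPM required, fewer members were tested, and those changed numbered 19 in the Ythdc1 set, 15 in the Mettl3 set, 11 in Dux-Het cells, 8 between Dux-KO and Dux-Het cells under 4OHT and 1 under DMSO. In Dux-KO cells the count was 2 with DESeq2, 3 without a filter and 2 with the replicate block. Between Dux-KO and Dux-Het cells under DMSO it was 5 with DESeq2, 14 without a filter and 4 with families summed. The difference of 4OHT changes gave 1 with DESeq2 and 1 without a filter, and the difference between the Ythdc1 and Mettl3 sets gave 17 with families summed. The cause was not tested. Leaving out 1 library gave 28 to 30 members in the Ythdc1 set, 11 to 25 in the Mettl3 set, 18 to 24 in Dux-Het cells, 1 to 2 in Dux-KO cells, 11 to 20 between Dux-KO and Dux-Het cells under 4OHT, 0 to 3 under DMSO, 0 for the difference of 4OHT changes and 3 to 10 for that between sets.

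Same-numbered libraries of the Ythdc1 set deviated together with r of 0.31, 0.086, 0.314 and 0.313, and each 4OHT library correlated best with its own number. Libraries with different numbers had r of −0.25 to 0.076. For 4OHT and DMSO libraries of the same number r was 0.536 in Dux-Het cells and 0.235 in Dux-KO cells. The main fits did not take the numbers as pairs, and whether they are pairs was not tested. The replicate block moved no other count by over 1.5 times (26 in Dux-Het cells and 20 between Dux-KO and Dux-Het cells under 4OHT). In the last of these the correlation was −0.206, and the crossed pairing, chosen after seeing the data, gave 17. Members with few counts limit these comparisons.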
